A study of Mus musculus with 2 samples.

Results

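Pyrin, encoded by Mefv, and 5 genes of the circuit that controls it were followed across the cell types of the mouse spleen: Pstpip1, which binds pyrin, the GTPase gene Rhoa, the kinase gene Pkn2, and the 14-3-3 genes Ywhaz and Ywhae. These 6 genes were taken by their symbols from the 32285 gene features counted in both libraries. The rule uses no measured value, but the genes were chosen with earlier results of these data known. The question was in which spleen cells Mefv RNA occurs together with RNA of the genes whose products hold pyrin inactive.

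Pyrin is an inflammasome sensor of innate immune cells that does not bind a microbial product directly. Active RhoA switches on the PKN kinases, which phosphorylate pyrin, and 14-3-3 proteins then hold the phosphorylated protein in an inactive state. Bacterial toxins that inactivate RhoA release this brake, pyrin recruits the adaptor ASC, and caspase-1 matures interleukin-1β. PSTPIP1 is a cytoskeletal adaptor that binds pyrin, and variants in either gene cause autoinflammatory disease. M694I is a change in the last domain of human pyrin found in familial Mediterranean fever.

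The study sequenced RNA of single spleen cells from mice, after red cell lysis, with 10x Genomics chemistry that reads the 3′ ends of transcripts. There was 1 library of each genotype: M694I WT (called wild-type here) and M694I knock-in, age-matched according to the series' design text, with no age, sex or strain in the labels. The sample titles read as a mouse each, the number of animals is not otherwise stated, and no treatment is listed for either library. How the M694I allele was built (mouse or human sequence, tagged or not) is not given in the labels, and the counts do not show which allele a transcript came from. For Mefv, a genotype difference in RNA level and one in how well the 3′ end of the edited transcript is counted therefore cannot be told apart.

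With 1 library per genotype, no difference between genotypes could be tested. Every interval below is an exact 95% interval for counting error only and holds no variation between mice. After filtering, 9543 wild-type cells with 30337275 unique molecular identifiers (UMIs, counts of single captured transcripts) and 8442 knock-in cells with 24043036 UMIs were kept. The median depth was 2531 UMIs per cell in the wild-type library and 2027.5 in the knock-in library, and 27 barcode sequences occurred in both. Levels are given as CPM, a gene's share of the summed UMIs of a class scaled to 1e6 UMIs, and are compared between cells for a gene, never between genes.

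Cells were assigned to classes by marker genes that include none of the 6. The tissue label held: 6282 wild-type and 5389 knock-in cells were B-like, and 1885 and 1775 were T-like. Among the rare classes were 144 and 137 monocyte-like, 88 and 82 conventional-dendritic-like, 89 and 32 neutrophil-like and 283 and 138 NK-like cells. A further 57 wild-type and 41 knock-in cells held monocyte and dendritic markers at once and are called undecided. Of the monocyte-like cells, 41 and 31 lay at the limit of the assignment rule, as did 31 and 36 of the dendritic-like cells.

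The promoters of the genes are shown first, because Mefv, and to a lesser degree Pstpip1, was higher in myeloid cells in the counts below while Pkn2 was not. RefSeq promoter sequences (GRCm38.p6) were found for 5 of the 6 genes (not Ywhaz), and the 230 bases from 250 to 21 before the annotated transcript start are compared. Capitals mark AGGAA or its reverse complement TTCCT. This is a longer form of the core GGAA (reverse complement TTCC) to which ETS factors such as PU.1, a regulator of myeloid genes, can bind. The shorter core was not counted. Each sequence is written 5′ to 3′ in the direction of its gene. The Mefv window lies on the minus strand at chr16:3718145-3718374, the Pstpip1 window on the plus strand at chr9:56089726-56089955 and the Pkn2 window on the minus strand at chr3:142882025-142882254.
Mefv: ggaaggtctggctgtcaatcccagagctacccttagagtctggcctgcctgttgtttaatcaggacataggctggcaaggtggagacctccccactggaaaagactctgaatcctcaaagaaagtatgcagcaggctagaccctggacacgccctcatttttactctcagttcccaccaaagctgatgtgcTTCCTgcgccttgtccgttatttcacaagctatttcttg
Pstpip1: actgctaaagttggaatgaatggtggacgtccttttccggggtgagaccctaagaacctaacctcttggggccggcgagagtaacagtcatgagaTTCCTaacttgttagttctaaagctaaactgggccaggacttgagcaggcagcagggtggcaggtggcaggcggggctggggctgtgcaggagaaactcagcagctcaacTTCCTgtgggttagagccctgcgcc
Pkn2: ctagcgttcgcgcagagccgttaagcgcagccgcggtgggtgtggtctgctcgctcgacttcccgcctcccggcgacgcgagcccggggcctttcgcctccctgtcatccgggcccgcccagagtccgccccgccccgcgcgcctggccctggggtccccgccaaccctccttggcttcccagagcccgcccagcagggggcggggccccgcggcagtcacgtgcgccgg

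The Mefv window held 1 AGGAA match, 59 bases before the start, and the Pstpip1 window held 2. The Pkn2 and Ywhae windows held 0 such matches, although both contain the shorter core as TTCC. Rhoa, with nearly equal monocyte-like and B-like levels, held 1 at its first annotated start, 110 bases before it, and 0 at the other. Such a match is common: 57.3% of the 32851 promoter windows of the table had at least 1 on either strand. Base composition separated the windows more clearly. GC content was 50.4% with 3 CpG dinucleotides for Mefv and 55.7% with 6 CpG for Pstpip1, near the medians of all windows (51.7% and 5). The Pkn2 window had 77.0% GC and 31 CpG, and the Ywhae window 74.3% and 28. Rhoa had 2 annotated starts, with 60.4% GC and 17 CpG at the first and 78.7% and 31 at the other. GGGCGG or its reverse complement CCGCCC, the GC box bound by Sp1-family factors, occurred 5 times in the Pkn2 window and 2 times in the Ywhae window, against 0 in those of Mefv and Pstpip1. The Rhoa windows held 0 at the first start and 1 at the other. It was present in 29.8% of all windows. These are matches of letters, not mapped binding sites.

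In the GENCODE M21 annotation of GRCm38, Mefv (ENSMUSG00000022534) occupies chr16:3707218-3718097 on the minus strand, and its longest coding transcript has 10 exons. Pstpip1 (ENSMUSG00000032322) lies at chr9:56089962-56128888 and Rhoa (ENSMUSG00000007815) at chr9:108306129-108337934, both on the plus strand of chromosome 9. Pkn2 (ENSMUSG00000004591) lies at chr3:142790902-142882004 and Ywhaz (ENSMUSG00000022285) at chr15:36770770-36796929, both on the minus strand, and Ywhae (ENSMUSG00000020849) at chr11:75732869-75765845 on the plus strand. Of the 6, Rhoa alone overlaps another annotated gene on its own strand, Gm37568, which is not among the counted features.

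Mefv RNA was rare and concentrated in myeloid cells. Over all kept cells the wild-type library held 144 Mefv UMIs in 89 cells (0.933% of cells), and the knock-in library 77 UMIs in 62 cells (0.734%). The largest number in a single cell was 5 and 4. Most of these cells held just 1 UMI: 53 of 89 wild-type and 52 of 62 knock-in cells. A cell without a Mefv UMI is therefore not shown to lack the transcript.

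Classical-monocyte-like cells, the Ly6c2-rich monocytes that enter inflamed tissue, held Mefv at 101 and 108 CPM in the respective libraries (38 and 30 UMIs). A Mefv UMI was found in 33.8% of 77 wild-type and 32.9% of 70 knock-in classical-monocyte-like cells. In non-classical-monocyte-like cells, the patrolling subset, the Mefv level was 47.9 and 32.5 CPM from 7 and 3 UMIs. The classical cells were thus above the non-classical ones in both libraries, 2.11-fold (interval 0.93 to 5.60) in wild-type and 3.32-fold (1.03 to 17.0) in knock-in, with the wild-type interval reaching below 1.

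Taken over all monocyte-like cells, the wild-type library had 84.3 CPM of Mefv (62.1 to 112) and the knock-in library 89.2 CPM (62.5 to 124). In B-like cells it was 0.264 and 0.443 CPM, from 5 and 6 UMIs, and a single knock-in cell held 4 of those 6. That cell also lies in the C1q-led macrophage cluster described below. The monocyte-like level was 319 times the B-like level in wild-type (128 to 1028) and 202 times in knock-in (84.1 to 585). Without the 40 and 47 B-like cells of that cluster, an alternative chosen after seeing the data, the folds were 316 (127 to 1019) and 598 (154 to 5123), so the order of the libraries turned. T-like cells held 2 Mefv UMIs in wild-type and 0 in knock-in. Shares of cells with a Mefv UMI gave the same order: 22.2% (15.7 to 29.9) and 21.2% (14.7 to 29.0) of monocyte-like cells, against 0.0637% and 0.0557% of B-like cells. Median depth was 4044.5 and 2885 UMIs in the monocyte-like cells and 2369.5 and 1847 in the B-like cells, so the shares were also computed at an equal depth. With every cell thinned to 1000 UMIs, the expected share was 6.55% and 7.78% in monocyte-like cells and 0.0229% and 0.0341% in B-like cells. Thinning left out 4 and 13 monocyte-like and 34 and 163 B-like cells that were shallower.

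**Figure D1:**
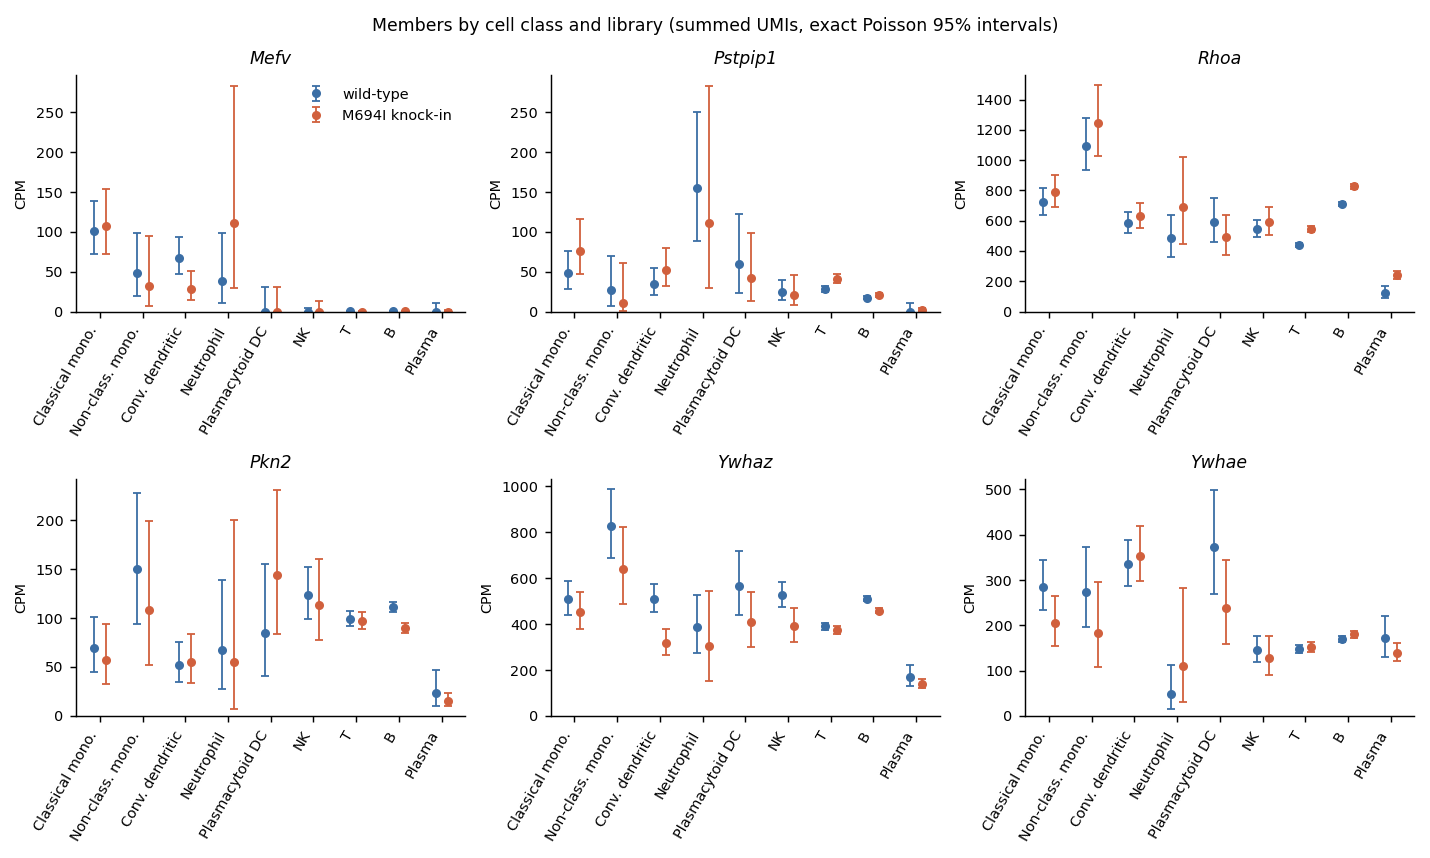
Level of each of the 6 genes (CPM, linear axes starting at 0) in 9 cell classes of the wild-type (blue) and knock-in (orange) library, with bars giving exact Poisson 95% intervals. Mefv lies near 0 in NK-like, T-like, B-like and plasma-like cells, Rhoa and Ywhaz are highest in non-classical-monocyte-like cells, and all genes but Mefv and Pstpip1 are present at some level in every class.

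Dendritic-like cells also held Mefv. In conventional-dendritic-like cells, which present antigen to T cells, the wild-type level was 67.2 CPM (46.8 to 93.5; 35 UMIs) and the knock-in level 28.6 CPM (14.3 to 51.2; 11 UMIs). A UMI was found in 21.6% (13.5 to 31.7) and 11% (5.14 to 19.8) of these cells. Split by subset markers, cDC2-like cells had 91.1 and 50.5 CPM (20 and 9 UMIs), while cDC1-like cells, only 12 and 9 in number, had 7 and 1 UMIs. The dendritic-like cells fell into separate clusters, between which Mefv differed in wild-type. A cluster led by Tyrobp, Ifitm2 and Alox5ap held 33 of the 35 wild-type and 9 of the 11 knock-in Mefv UMIs, in 51 and 42 of the gated cells. A cluster led by Fscn1, Basp1 and Tbc1d4 held 2 and 0, in 34 and 28 cells. These cells were shallower, with a median of 3407 and 2280.5 UMIs against 7412 and 5083.5. In wild-type the levels were 85.1 (58.6 to 119) and 16.6 CPM (2.02 to 60.1). In knock-in they were 36.3 and 0 CPM, the latter with an interval up to 52.5 CPM, so the split is not shown there.

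The undecided cells had 93.2 (wild-type) and 43.0 CPM (knock-in) of Mefv (31 and 9 UMIs). Neutrophil-like cells were shallow, with a median of 993 and 899 UMIs, and held 4 Mefv UMIs in each library, a level of 38.6 and 111 CPM with wide intervals. Plasmacytoid-dendritic-like cells, which make type I interferon, held 0 Mefv UMIs in 21 and 29 cells, and a count of 0 allows up to 25.4 and 25.5 CPM there. NK-like cells also held 0, which allows up to 4.16 and 10.7 CPM, and so did plasma-like cells, with limits of 8.86 and 2.04 CPM.

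Macrophages were nearly lost by the marker rule, which kept 3 and 5 cells with 0 Mefv UMIs. A cluster led by the complement genes C1qa, C1qb and C1qc, typical of splenic macrophages, was larger, with 81 and 87 cells, of which 40 and 47 passed as B-like by their markers. It held 0 Mefv UMIs in wild-type. By the same limit of 3 this allows up to 11.8 CPM and up to 3.70% of cells with a UMI (a limit on detection, not on expression). In knock-in the cluster held 4, all in 1 cell, the B-like cell named above. B-like and T-like cells are taken here as the classes that should lack Mefv, and their few UMIs as its background, with 2 knock-in UMIs left in B-like cells once that cell's cluster is set aside.

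Of all Mefv UMIs, monocyte-like cells held 33.3% in wild-type and 46.8% in knock-in, dendritic-like cells 24.3% and 14.3%, and undecided cells 21.5% and 11.7%. These classes made up 1.88% and 1.68%, 1.72% and 1.60%, and 1.10% and 0.871% of all UMIs of the libraries. Another 13.2% and 14.3% of Mefv UMIs lay in cells that no marker list claimed. Together the monocyte-like, dendritic-like and undecided cells held 114 of 144 wild-type and 56 of 77 knock-in Mefv UMIs, while B-like cells, the most numerous class, held 5 and 6.

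**Figure D2:**
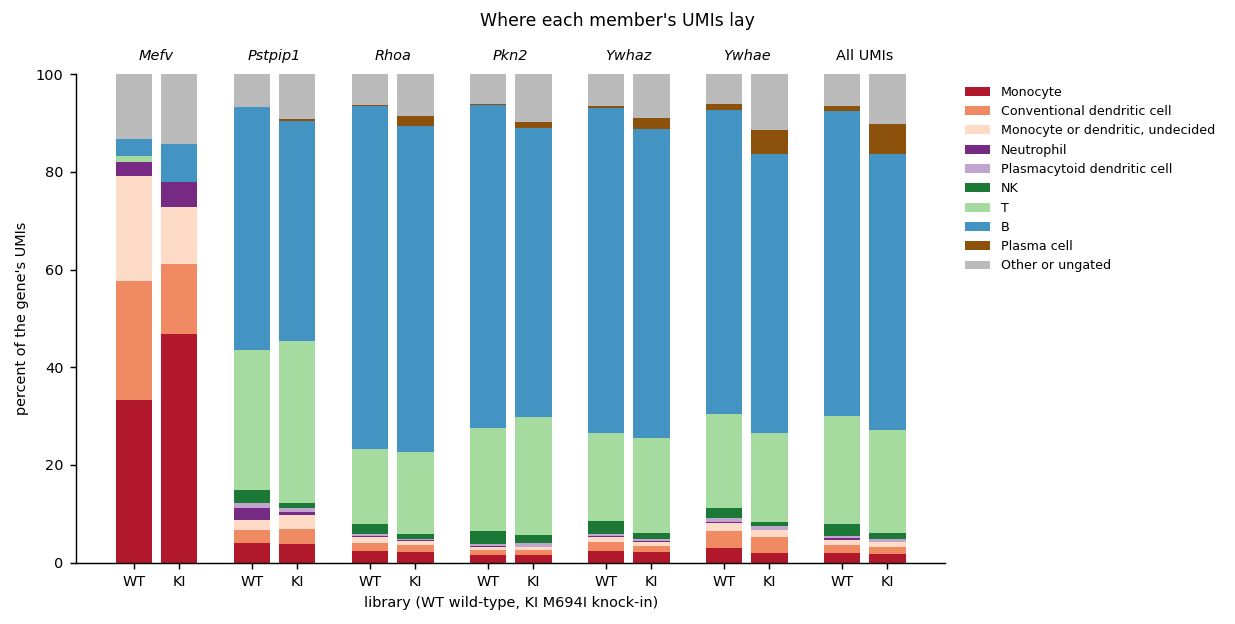
Share of each gene's UMIs (percent, vertical axis) that lay in each cell class, with a bar per library for each of the 6 genes and, at the right, for all UMIs. Mefv bars are mostly monocyte (33.3% and 46.8%) and dendritic or undecided, whereas B-like cells hold 49.8% and 45.1% of Pstpip1 UMIs and most of the UMIs of the other genes.

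Pstpip1, the adaptor that binds pyrin, had a wider distribution. It was highest in neutrophil-like cells, with 154 CPM from 16 wild-type UMIs and 111 CPM from 4 knock-in UMIs. Next by the mean of both libraries were classical-monocyte-like cells, at 47.9 and 75.6 CPM, though plasmacytoid-dendritic-like cells stood above them in wild-type (59.2 CPM). Unlike Mefv, Pstpip1 was present in T-like cells (28.3 and 41.0 CPM), NK-like cells (25.0 and 21.3 CPM) and B-like cells (17.5 and 21 CPM). Plasma-like cells had 0 UMIs in wild-type and 2 in knock-in.

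Against B-like cells, Pstpip1 was 8.84-fold higher in neutrophil-like cells in wild-type (5.0 to 14.6) and 5.26-fold in knock-in (1.42 to 13.6). In monocyte-like cells it was 2.61-fold (1.68 to 3.90) and 2.83-fold higher (1.78 to 4.29), and in T-like cells 1.62-fold (1.35 to 1.94) and 1.95-fold (1.62 to 2.34). These intervals lay above 1 in both libraries. The ranks between neutrophil and B were less firm, since the intervals of classical-monocyte-like, plasmacytoid-dendritic-like and conventional-dendritic-like cells overlapped. The top rank was not firm in knock-in either. Neutrophil-like over monocyte-like Pstpip1 was 3.38-fold (1.70 to 6.55) in wild-type and 1.86-fold (0.47 to 5.41) in knock-in. Because lymphocytes are so many, B-like cells held 49.8% and 45.1% and T-like cells 28.7% and 33.2% of all Pstpip1 UMIs. The plasmacytoid-dendritic-like cells, with 0 Mefv UMIs, had 7 and 5 Pstpip1 UMIs (59.2 and 42.4 CPM).

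Rhoa, the GTPase whose activity keeps pyrin phosphorylated, was present in every class. Its level was highest in non-classical-monocyte-like cells, at 1095 (wild-type) and 1245 CPM (knock-in), and stood at 722 and 788 CPM in the classical ones. The non-classical level was 1.52 times (1.24 to 1.85) and 1.58 times (1.25 to 1.99) the classical one, the opposite order to Mefv. B-like cells had 709 and 826 CPM of Rhoa, dendritic-like cells 586 and 632 CPM, and T-like cells 440 and 545 CPM. Plasma-like cells, which devote much of their RNA to antibody, had only 124 and 241 CPM. Monocyte-like and B-like cells hardly differed in Rhoa: the ratio was 1.15 (1.05 to 1.27) in wild-type and 1.06 (0.95 to 1.18) in knock-in.

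Pkn2 encodes PKN2, a RhoA-bound kinase that can phosphorylate pyrin. It was comparatively low in classical-monocyte-like and conventional-dendritic-like cells, where Mefv was high. The lowest Pkn2 level, however, was in plasma-like cells (23.6 and 15.7 CPM), which held 0 Mefv UMIs. Classical-monocyte-like cells had 69.3 and 57.6 CPM of Pkn2 and conventional-dendritic-like cells 51.9 and 54.6 CPM, against 111 and 90.1 CPM in B-like, 99.0 and 97.1 CPM in T-like and 124 and 114 CPM in NK-like cells. The dendritic-like level was 0.466 times (0.31 to 0.68) and 0.606 times (0.37 to 0.93) the B-like one, with both intervals under 1. Over all monocyte-like cells the Pkn2 ratio to B-like cells was 0.82 (0.61 to 1.08) and 0.88 (0.60 to 1.25), with both intervals including 1. Non-classical-monocyte-like cells, lower in Mefv, had 151 and 108 CPM of Pkn2, or 2.17 and 1.88 times the classical level. That difference rests on 22 and 10 Pkn2 UMIs in the non-classical cells.

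Ywhaz, the gene of 14-3-3ζ, had its highest and lowest class in common with Rhoa. It was highest in non-classical-monocyte-like cells (828 and 639 CPM), at 511 and 453 CPM in classical ones and 511 and 459 CPM in B-like cells, and lowest in plasma-like cells (171 and 139 CPM). The non-classical level was 1.62 and 1.41 times the classical one. Ywhae, the gene of 14-3-3ε, was instead highest in dendritic-like cells. Conventional-dendritic-like cells had 334 and 354 CPM of Ywhae against 170 and 180 CPM in B-like cells, a ratio of 1.97 (1.68 to 2.30) in wild-type and 1.97 (1.64 to 2.34) in knock-in. Plasmacytoid-dendritic-like cells had 372 and 238 CPM and classical-monocyte-like cells 285 and 205 CPM. Neutrophil-like cells, which also held Mefv, had the lowest Ywhae level of the 9 classes, at 48.3 and 111 CPM from 5 and 4 UMIs. That was 0.285 times (0.09 to 0.67) the B-like level in wild-type and 0.615 times (0.17 to 1.58) in knock-in. So both 14-3-3 genes were found in each class that held Mefv, but at unlike levels and with different classes at the top.

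Whether the same cells held Mefv and its partners was read from the 3 classes with most Mefv (monocyte-like, conventional-dendritic-like and undecided) joined. There, 68 wild-type cells had a Mefv UMI and 221 had none, and in knock-in these numbers were 45 and 215. Rhoa was found in 95.6% of the Mefv-positive cells in wild-type and 93.3% in knock-in, Ywhaz in 92.6% and 80%, Ywhae in 76.5% and 66.7%, and Pkn2 in 41.2% and 26.7%. RNA of Rhoa, Pkn2, Ywhaz and Ywhae together was found with Mefv in 23 of 68 wild-type cells (33.8%) and 8 of 45 knock-in cells (17.8%). All 5 partners were found in 8 of 68 (11.8%) and 1 of 45 (2.22%). Among cells without a Mefv UMI, Rhoa was found in 91.4% and 82.3%, those 4 genes together in 18.1% and 10.7%, and all 5 partners in 2.26% and 2.79%. In the 3 classes joined, Mefv-positive cells were thus above the others for the 4 genes in both libraries. For all 5 partners they were above in wild-type but not in knock-in. In monocyte-like cells the 4-gene shares with and without a Mefv UMI were 31.25% and 17.0% (wild-type) and 13.8% and 8.33% (knock-in). In conventional-dendritic-like cells they were 31.6% and 15.9% (wild-type) and 11.1% and 13.7% (knock-in). Undecided cells had 41.2% and 25%, and 42.9% and 11.8%. In cDC2-like cells the order turned in both libraries, at 16.7% and 22.7%, and 14.3% and 21.4%.

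Pstpip1 was found in 29.4% (19.0 to 41.7) of the Mefv-positive wild-type cells and 13.1% (8.97 to 18.3) of the others. In knock-in the shares were 20% and 19.1%. The Mefv-positive cells were deeper, with a median of 6233.5 against 4105 UMIs in wild-type and 4242 against 3287 in knock-in. At 1000 UMIs per cell, the expected share with Pstpip1 was 4.47% among Mefv-positive and 3.16% among other wild-type cells, and 5.64% and 5.37% in knock-in. At that depth Rhoa was expected in 53.0% and 52.5% of wild-type and 50.6% and 52.5% of knock-in cells. Ywhaz was at 38.2% and 41.6% in wild-type and Ywhae at 22.3% and 23.6%, so the order of cells with and without Mefv turned for both. Pkn2 stayed higher in Mefv-positive cells, at 9.65% and 8.04% in wild-type and 8.17% and 7.65% in knock-in. At that depth only 17.6 wild-type and 13.3 knock-in cells were expected to be Mefv-positive. In the 3 classes joined, the higher detection of partners in Mefv-positive cells, in percentage points, thus shrank or turned at equal depth. Conventional-dendritic-like cells alone differed for wild-type Rhoa (94.7% and 92.8% with all UMIs, 55.6% and 47.1% at equal depth). They also differed for knock-in Pkn2 (22.2% and 23.3%, then 11.8% and 6.33%). All other partner gaps in those cells shrank or turned, and only 4.95 and 2.17 Mefv-positive cells were expected there.

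**Figure D3:**
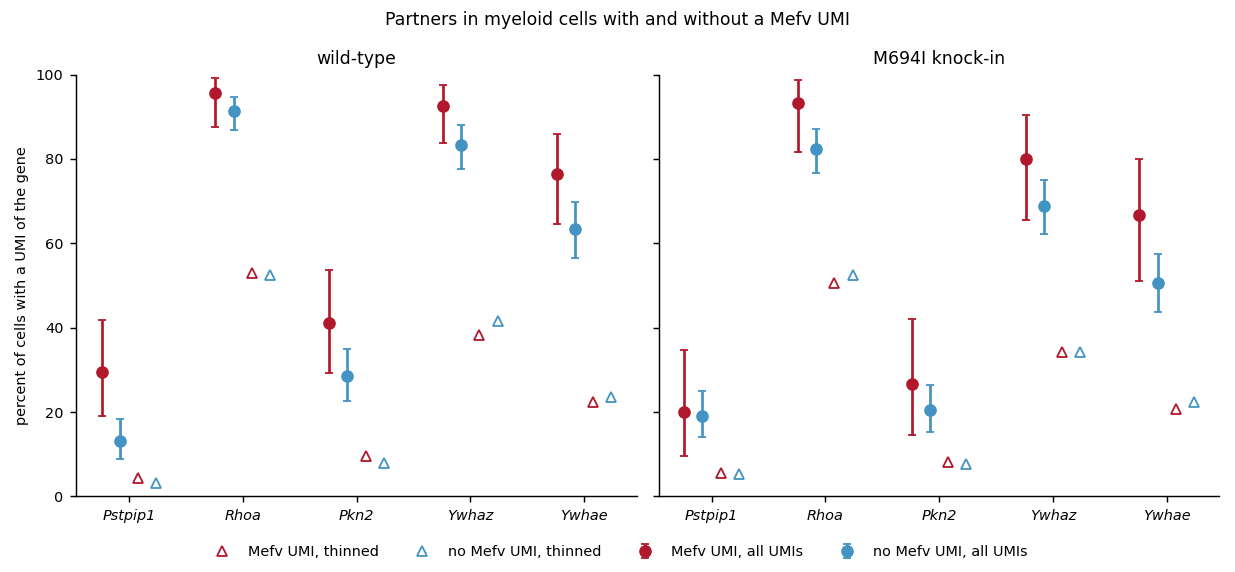
Percent of monocyte-like, conventional-dendritic-like and undecided cells with a UMI of each partner, among cells with (red) and without (blue) a Mefv UMI, in each library. Filled circles use all UMIs with Clopper-Pearson 95% intervals and open triangles the expectation at 1000 UMIs per cell. There all shares are lower, and small gaps on this axis can still differ in proportion (Pstpip1 4.47% and 3.16% in wild-type).

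Likeness of pattern was measured across 8 classes in both libraries, 16 points that share libraries and differ in depth and cell number, as Pearson's r of log2(CPM + 10) over 10530 genes that are no class marker. The genes most like Mefv were Lgals3 (galectin-3, r = 0.95), M6pr (a mannose 6-phosphate receptor, 0.95), Alox5ap (which activates leukotriene synthesis, 0.95), App (0.95) and Lrrc25 (0.94). Among the partners r with Mefv was 0.56 for Pstpip1, 0.31 for Ywhae, 0.30 for Rhoa, 0.08 for Ywhaz and -0.63 for Pkn2. The genes most like Pstpip1 were Rtp4 (0.89), Ccr1 (0.88), Cmpk2 (0.88), Ap3m1 (0.87) and Pira2 (0.87). These r values describe these sums and carry no test. Plasma-like and plasmacytoid-dendritic-like cells were too few to be among the 8 classes.

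The wider circuit was read from 63 genes in 9 lists, first by comparing monocyte-like with B-like cells in both libraries. Over 12010 genes measured, 14.9% were higher in monocyte-like cells, with the interval of the fold above 1 in both libraries, and 10.8% were lower. Of the 6 pyrin genes, Mefv and Pstpip1 were higher and 0 were lower. A gene counted as measured with at least 20 UMIs over both classes and libraries. Mefv met this only through its 48 and 36 monocyte-like UMIs, against 5 and 6 B-like UMIs. Its call therefore adds no support beyond the levels given above. Ywhae was 1.60 times (1.36 to 1.89) the B-like level in wild-type and 1.19 times (0.95 to 1.47) in knock-in, and Pkn2 0.82 and 0.88 times. In the paragraphs that follow, genes named for monocyte-like against B-like cells were picked after their values were seen.

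Other 14-3-3 genes split: Ywhab (2.90- and 2.54-fold) and Ywhag (3.06- and 3.51-fold) were higher in monocyte-like cells, and Ywhah (0.557- and 0.604-fold), Ywhaq (0.526- and 0.659-fold) and Sfn (0.0436- and 0.0314-fold) were lower.

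Of 9 genes of pyrin and Pstpip1 partners 4 were higher in monocyte-like cells, among them Ptpn12, a phosphatase that binds PSTPIP1 (9.72- and 11.8-fold). Another was Pstpip2, a relative of Pstpip1 (7.0-fold, 1.73 to 21.1, and 22.4-fold, 7.94 to 59.6), from only 4 and 8 monocyte-like UMIs. The T and B cell adhesion gene Cd2, whose product also binds PSTPIP1, was lower (0.0309- and 0.0548-fold). Of 6 genes of PP2A, a protein phosphatase, 3 were higher. Of 6 genes acting after pyrin 3 were higher: Pycard, which encodes ASC (5.02- and 4.13-fold), Gsdmd, the pore former, and the cytokine gene Il1b (41.3- and 32.2-fold). Of 11 mevalonate and prenylation genes, which supply the lipid anchor of RhoA, 0 were higher and 3 lower.

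**Figure D4:**
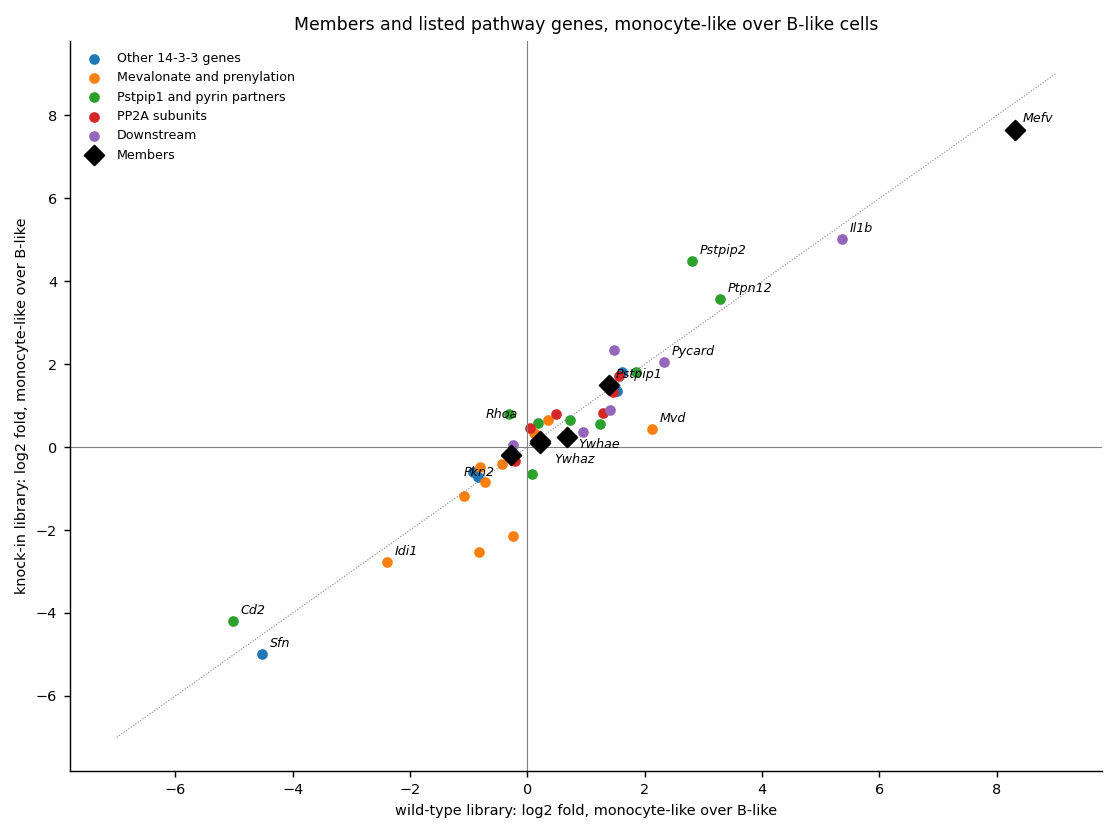
Log2 fold of monocyte-like over B-like cells for the 6 genes (black diamonds) and the genes of 5 pathway lists with UMIs in both classes (circles, coloured by list), in the wild-type (horizontal) and knock-in library (vertical). Mefv lies at the upper right, apart from the rest (319- and 202-fold), Pstpip1 with the moderately higher genes, and Rhoa, Ywhaz, Ywhae and Pkn2 near the centre.

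Knock-in and wild-type libraries were then compared within classes. In monocyte-like cells, the Mefv level was nearly the same, with 48 wild-type and 36 knock-in UMIs and a log2 ratio of 0.08 (interval -0.58 to 0.74). In classical-monocyte-like cells it was 0.09. In conventional-dendritic-like cells Mefv was lower in the knock-in library, with a log2 ratio of -1.23 (-2.36 to -0.22), and in undecided cells likewise, with -1.12 (-2.37 to -0.01). Over all kept cells the ratio was -0.57 (-0.99 to -0.16), and over the 3 myeloid classes joined, a grouping made after seeing the data, -0.51 (-1.0 to -0.04). The level ratio of monocyte-like to dendritic-like cells was 1.25 (0.79 to 2.00) in wild-type and 3.12 (1.55 to 6.79) in knock-in.

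The dendritic-like values rest on 35 and 11 UMIs and on how the cells were divided. Knock-in dendritic-like cells held more monocyte marker RNA, 4221 against 2228 CPM summed over 8 markers, of which all 8 were found in both libraries. The 8 dendritic markers stood at 9973 against 8408 CPM. Neutrophil markers were at 10.4 CPM (3 of 8 found, with S100a8, Retnlg, Cxcr2, Mmp9 and Ly6g at 0) against 717 CPM (7 of 8, with Ly6g at 0). The part of these in the Mefv difference was not tested. Within the Tyrobp-led cluster the gated dendritic-like cells had 85.1 (58.6 to 119) and 36.3 CPM (16.6 to 68.9) of Mefv. That cluster held 33 of the 35 wild-type and 9 of the 11 knock-in Mefv UMIs of these cells. Its values are therefore nearly the same counts and no separate support for the difference. When clusters replaced the marker rule, the dendritic class became the Fscn1-led cluster with 2 and 1 Mefv UMIs (log2 ratio -0.28), and the monocyte class had 75 and 47 (92.6 and 73.7 CPM, log2 ratio -0.33).

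For the partners, the ratios over all kept cells were small. Pstpip1 was at 21.9 (wild-type) and 26.3 CPM (knock-in) (log2 ratio 0.26, 0.10 to 0.42), and Rhoa at 631 and 697 CPM (0.14, 0.11 to 0.17). Pkn2 was at 105 and 85.7 CPM (-0.29, -0.37 to -0.21), Ywhaz at 480 and 408 CPM (-0.23, -0.27 to -0.20) and Ywhae at 170 and 177 CPM (0.06, 0.00 to 0.12). A ratio of at least 0.32 in size on the log2 scale, a 1.25-fold difference, was set as the limit for a call, among genes with a mean of at least 10 CPM and at least 20 UMIs. Of the 6 genes 5 met these minimums over all kept cells, Mefv being too low, and 0 of them passed the limit, against 34.8% of the 7079 genes that met them. Pstpip1 passed it with TMM scaling (0.33), with cells thinned to 1000 UMIs (0.48), with each cell weighted equally (0.46) and without cells holding Cd79a, Cd79b or Ms4a1 UMIs (0.50). Intervals that exclude 0 while the ratio is small reflect the many UMIs, and without a second library per genotype they say nothing of its effect.

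By class, Pstpip1 was higher in the knock-in T-like cells (28.3 and 41.0 CPM; 0.53, 0.24 to 0.82), the only call there among the 5 genes that met the minimums, where 17.6% of genes were called higher. Rhoa in T-like cells was at 0.31 (0.23 to 0.38). In monocyte-like cells Pstpip1 was called higher (0.38, -0.48 to 1.24) and Ywhae lower (-0.35, -0.75 to 0.04), both with intervals that include 0, where 24.6% of genes were called higher and 26.3% lower. In dendritic-like cells Pstpip1 was called higher (0.59, -0.40 to 1.59) and Mefv and Ywhaz lower, where 28.8% of genes were called higher and 28.7% lower. In B-like cells, where Mefv missed the minimums, 0 of the 6 genes were called, while 14.8% of genes were called higher and 18.0% lower. These shares put the counts of the 6 genes near or under those of all genes.

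Ywhaz in dendritic-like cells was called lower with an interval that excluded 0: 511 CPM from 266 wild-type UMIs and 317 CPM from 122 knock-in UMIs, a log2 ratio of -0.69 (-1.01 to -0.37). It was lower in the knock-in library within both clusters, at 529 and 319 CPM in the Tyrobp-led and 474 and 242 CPM in the Fscn1-led one. In NK-like cells Ywhaz was also lower (528 and 391 CPM; -0.43, -0.75 to -0.12). Ywhae in dendritic-like cells did not follow, at 334 and 354 CPM. Rhoa in plasma-like cells was higher in knock-in (0.96, 0.49 to 1.46), between 26 wild-type and 108 knock-in cells.

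**Figure D5:**
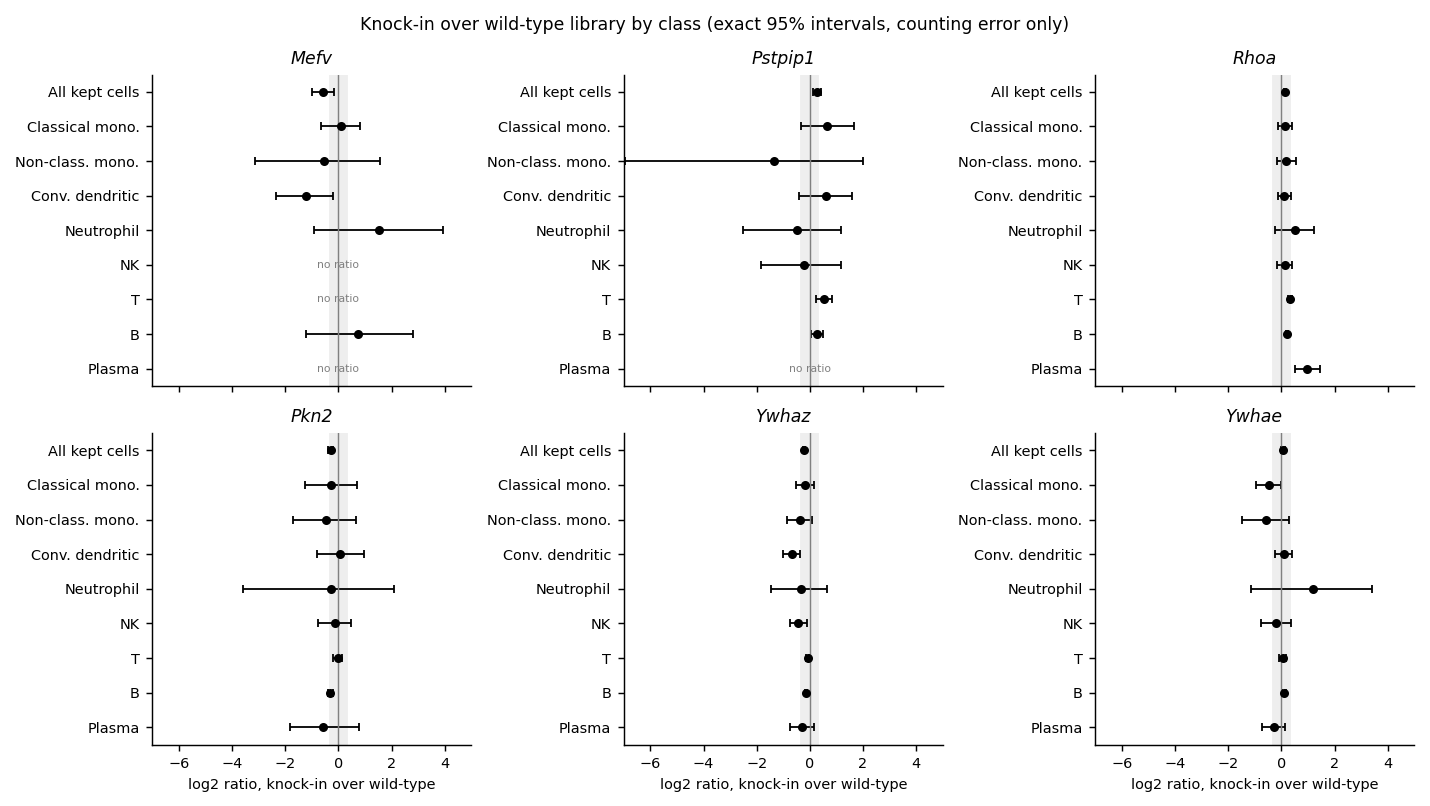
Log2 ratio of knock-in over wild-type level (horizontal axis) for each gene in all kept cells and 8 classes, with exact 95% intervals for counting error and the range within 0.32 of 0 shaded. Mefv and Ywhaz in conventional-dendritic-like cells lie below 0 (-1.23 and -0.69), Pstpip1 in T-like cells lies above it (0.53), and the words no ratio stand where a library had 0 UMIs.

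Over all kept cells, 53 of the 63 listed circuit genes met the minimums, and 6 were higher and 11 lower in the knock-in library, against 12.4% of all 7079 genes higher and 22.4% lower. The median log2 ratio was -0.07 for the listed genes and -0.08 for all genes. With TMM scaling, which assumes that most genes do not differ and moved all ratios up by 0.07, the split was 10 higher and 8 lower.

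Of 5 14-3-3 genes 1 was higher, Ywhaq (0.36), with Ywhah at 0.23 and Ywhag at -0.21. Of 8 mevalonate genes 1 was higher, Fdps, a farnesyl diphosphate synthase gene (0.58), with Hmgcs1 at -0.31 and Pggt1b at -0.20. Of 7 pyrin and Pstpip1 partner genes 1 was lower, Ptpn12 (-0.71), with Siva1 at 0.29 and Cd2 at 0.23. Of 6 PP2A genes 1 was lower, Ppp2r5c (-0.35), with Ppp2r1a at -0.26 and Ppp2cb at -0.15. Among 5 genes acting after pyrin, Pycard (0.78) and Casp1 (0.63) were higher and Il1b (-0.82) was lower. The knock-in library had 32 neutrophil-like cells and the wild-type library 89. Sums over all cells alone do not separate a change in RNA per cell from a change in cell numbers. Within classes, Il1b was at 4499 (wild-type) and 4231 CPM (knock-in) in neutrophil-like cells. It was at 161 and 166 CPM in monocyte-like and 204 and 146 CPM in dendritic-like cells. Pycard was at 31.8 and 57.0 CPM in B-like, 76.9 and 116 CPM in T-like and 160 and 236 CPM in monocyte-like cells. Casp1 was at 19.2 and 30.6 CPM, 6.83 and 19.7 CPM, and 36.9 and 39.7 CPM in these 3 classes. The part of cell numbers in the sums was not tested.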

How the data were processed

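Per the file headers, the authors' UMI counts, deposited unnormalized, came from Cell Ranger 6.1.2. The submitters' processing notes instead list version 7.1.0 of that program, with Seurat 5.0.3 and mm10. How barcodes were chosen, and with which annotation, is not given in the sources used. The libraries held 10449 wild-type and 9000 knock-in barcodes (32797052 and 25193274 UMIs).

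A barcode was kept with 500 or more UMIs, 200 or more genes and a mitochondrial share under 10%. Doublets were scored with Scrublet in scanpy 1.11.5. Its automatic limit marked 157 wild-type but 1 knock-in cell, so a score of 0.4 was used for both, marking 190 (1.95%) and 141 (1.64%). A cell joined the class of which it held at least 3 of 8 markers and 2 more than of any other list, and subsets needed 2 markers and a lead of 1. Of 136 markers 1 (Ahsp) was not among the features. Leiden clusters (leidenalg 0.10.2) served as an alternative. The scoring rule, the doublet score, the undecided class and the alternatives listed as added were set after seeing the data.

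UMIs were summed per library and class; levels have exact Poisson, shares Clopper-Pearson and ratios exact conditional binomial intervals at 95% (scipy 1.17.1), which cover counting error only. Shares at 1000 UMIs are the exact expectation over random draws. TMM factors came from edgeR 4.0.16. The ratio rule was tested on simulated data. All 6 genes are named, with the 3 largest log2 ratios of each list described and the 5 genes most like Mefv and Pstpip1; the 6 genes and the lists were chosen with earlier results of these data known. Promoters are from RefSeq (GRCm38.p6); 5 of the 6 genes matched. Alternatives changed cell filters, doublets, classes, depth, scaling, low-value filter and the ratio limit. Of the 9 lists, 4 count in the totals but are not reported here one by one.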

Additional observations from a re-analysis of the deposited data

Results flagged for a closer look

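Among 7 classes with at least 30 cells in each library, the knock-in over wild-type log2 ratio was at least 0.32 in size in opposite directions in a pair of classes for 3 of the genes. Smaller ratios and smaller classes were not considered. The differences between the classes were not tested. Mefv was at 1.52 (-0.91 to 3.94) in neutrophil-like cells, from 4 UMIs in each library, and at -1.23 (-2.36 to -0.22) in conventional-dendritic-like cells. Pstpip1 was at 0.66 (-0.32 to 1.65) in classical-monocyte-like cells and at -1.34 (-6.96 to 2.00) in non-classical-monocyte-like cells, the latter from 4 wild-type UMIs and 1 knock-in UMI. Ywhae was at 1.20 (-1.14 to 3.41) in neutrophil-like cells, from 5 and 4 UMIs, and at -0.57 (-1.48 to 0.28) in non-classical-monocyte-like cells. The Mefv interval in conventional-dendritic-like cells alone excluded 0 among these 6.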

How the results depend on the processing

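No paired analysis was possible because there was 1 library per genotype, with no replicate numbers. The genotype ratios of Mefv in monocyte-like (0.08) and conventional-dendritic-like cells (-1.23) stayed inside their counting intervals under every alternative run, ranging from -0.33 to 0.18 and from -1.30 to -0.28. Leiden clusters gave the -0.33 and the -0.28. The -0.28 is from the Fscn1-led cluster, with 2 and 1 Mefv UMIs, largely a different set of cells. The other alternatives reuse most of the same UMIs, so staying inside the wide intervals is no independent support for the ratios. Of 400 alternative values of log2 ratios, 377 lay within the counting interval of the reported ratio and 23 outside it. The sign changed for 16, of which 12 had a reported ratio under 0.32 in size, Mefv in monocyte-like cells among them (-0.33 with Leiden clusters, -0.25 with undecided cells joined, -0.019 with a gate lead of 1 marker). The 4 others, with larger reported ratios, were Pstpip1 in monocyte-like cells (-0.022 with Leiden clusters) and in dendritic-like cells (-0.60 with Leiden clusters), and Mefv in B-like cells (-0.11 with a mitochondrial limit of 5%, -0.10 without the highest cell of each library). Of the listed circuit genes, 6 were higher over all kept cells as reported. That count was 10 with cells thinned to 1000 UMIs, 10 with TMM factors, 10 with each cell weighted equally, 11 with no low-value filter and 2 with a limit of 0.58. An alternative added after seeing the data, without cells holding Cd79a, Cd79b or Ms4a1 UMIs, gave 11. The count of lower genes, 11 as reported, was 7 with thinned cells, 7 with equal weights, 2 with a limit of 0.58 and 6 without the Cd79a, Cd79b or Ms4a1 cells. The cause was not tested, other than that the limit of 0.58 is stricter and that no filter admits more genes. Leaving out the B-like cells of the macrophage cluster, also added, moved the knock-in fold of monocyte-like over B-like Mefv from 202 to 598. Depth limits Mefv: outside the myeloid classes its values rest on at most 6 UMIs per named class.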
